A study of Mus musculus with 8 samples.

Results

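The p53 family, Trp53, Trp63 and Trp73, and its regulators Mdm2 and Mdm4 were examined in tumors and normal tissue of the mouse gastric squamous-columnar junction (SCJ), the border between the squamous forestomach and the glandular stomach. All 5 genes were found by symbol among the 23361 genes of the table. Polyadenylated RNA was sequenced from 5 SCJ cancers and from the SCJ of 3 control stomachs. The cancers arose after tamoxifen in mice that carried the Lgr5-eGFP-Ires-CreERT2 allele, floxed alleles of both tumor suppressors (Trp53 loxP/loxP and Rb1 loxP/loxP) and the Ai9 reporter, and are labelled Trp53-/-Rb1-/-. The controls were age-paired and labelled wild type. Cre was driven from the Lgr5 locus, so that recombination of Trp53 and Rb1 was directed to Lgr5+ cells and their descendants, and the alleles of other cells within a tumor were not measured. Tumors were cut out along the border of the tdTomato reporter. Each control was a separate stomach, whereas the sources used here do not say whether any of the cancers shared an animal, so p-values measure the spread between these samples.

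p53, the product of Trp53, is a transcription factor that halts the cell cycle or induces cell death after DNA damage and other stress. MDM2 binds p53, blocks it and marks it for degradation, and Mdm2 is itself activated by p53, which closes a feedback loop. MDM4 is a relative of MDM2 that inhibits p53 mainly by binding it. p63, the product of Trp63, maintains the basal layer of stratified squamous epithelium, and p73, the product of Trp73, acts in multiciliated cells and in neurons.

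Values are FPKM (fragments mapped to a gene, scaled to its transcript length and to the size of the library) that the authors deposited as whole numbers. Differences were tested on the log2(FPKM + 1) scale, which understates changes of low genes, and log2FC is the mean of the cancers minus the mean of the controls on that scale. The FPKM of a library summed to between 403569 and 573858 in the cancers and between 887141 and 992550 in the controls. Read numbers were not part of the table, so the depth behind each value is unknown. The filter on low values, an FPKM of 1 or more in 3 or more libraries, left 14357 genes, of which limma called 34.5% at an adjusted p under 0.05. The control libraries held the markers of both epithelia of the junction, with summed FPKM of 158537 to 240752 for 10 gastric gland markers and of 8509 to 12519 for 18 suprabasal squamous markers. The cancers had sums of 694 to 78716 and of 72 to 4346, and all 10 neuroendocrine markers were higher in them (adjusted p from limma). Some zeros are doubtful. Pgc, a pepsinogen gene of gastric glands, was listed at 28832 in control 1 and at 0 in controls 2 and 3, and the ribosomal gene Rpl26 was listed at 0 in control 3.

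Trp53 lies on the plus strand of chromosome 11 (mm10, chr11:69580359-69591873) and Mdm2 on the minus strand of chromosome 10 (chr10:117688905-117710716). Mdm4 lies on the minus strand of chromosome 1 (chr1:132989845-133025348), Trp73 on the minus strand of chromosome 4 (chr4:154056249-154140208) and Trp63 on the plus strand of chromosome 16 (chr16:25683765-25892088). In GENCODE vM21 no other gene overlaps Trp53 or Mdm2. Trp73 overlaps an antisense gene, Trp73os, and a snoRNA gene, Trp63 a snRNA gene and a processed pseudogene, and Mdm4 a processed pseudogene, and 0 of these are rows of the table. Trp63 has 8 coding transcripts and Trp73 has 6, which start at separate promoters and give proteins with or without the activating domain. The FPKM are 1 value per gene and do not separate these forms.

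The 250 bases before the gene start of Trp53 and of Mdm2 are shown here, since the levels of these 2 genes were high in different cancers. The sequences are RefSeq entries on GRCm38.p6, the build also called mm10, from chr11:69580109-69580358 on the plus strand and chr10:117710759-117711008 on the minus strand. Capitals mark matches on either strand to a p53 half-site, to the GC box with the letters GGGCGG, to the CCAAT box, whose letters are its name, or to the TATA box, searched for with the letters TATAAA.
Trp53: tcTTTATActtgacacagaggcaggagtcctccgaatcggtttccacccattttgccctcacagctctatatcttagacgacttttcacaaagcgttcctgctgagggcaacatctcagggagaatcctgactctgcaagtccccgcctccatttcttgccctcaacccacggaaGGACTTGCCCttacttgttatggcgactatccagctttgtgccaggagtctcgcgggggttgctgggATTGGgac
Mdm2: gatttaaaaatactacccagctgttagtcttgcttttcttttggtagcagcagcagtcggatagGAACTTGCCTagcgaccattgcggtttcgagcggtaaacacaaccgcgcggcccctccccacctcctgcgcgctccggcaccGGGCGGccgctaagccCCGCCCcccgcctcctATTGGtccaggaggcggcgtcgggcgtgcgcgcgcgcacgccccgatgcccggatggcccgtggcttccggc

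Each of these promoters held 1 match to a p53 half-site, the 10-base unit of which a full p53 site has a pair. It begins 75 bases before the start in Trp53 and 186 bases before the start in Mdm2. Of 32851 windows of 250 bases in the RefSeq table, 7.13% held such a match. Mdm2 held 2 GC boxes, which 32.7% of the windows have at least once, and both genes held a CCAAT box, present in 33.8%. The first bases of the Trp53 window held a TATA box on the opposite strand, a motif in 12.4% of windows. None of the capitals overlap between motifs. E2F sites (searched as TTTCGCGC, as TTTGGCGC, as TTTCCCGC and as TTTGCCGC), present in 1.86% of windows, were matched in neither sequence. A match is a run of letters and not evidence of binding, and the p53-responsive promoter inside the first intron of Mdm2 lies outside this window.

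None of the 4 members that passed the filter on low values was called different between cancers and controls. By limma 0 of 4 passed at an adjusted p under 0.05, beside 34.5% of all genes tested, and 0 of 4 at an unadjusted p under 0.05, beside 47.9% of all genes. By the two-sided exact permutation test, whose smallest p for 5 against 3 samples is 0.018, 0 of the same 4 members had a p under 0.05, beside 33.4% of all genes tested. Trp73, listed at 0 in 7 of 8 libraries, could not have passed. The groups overlapped for every member, whereas they did not overlap for 34.1% of the genes tested. Each member nevertheless varied more among the cancers than among the controls.

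**Figure D1:**
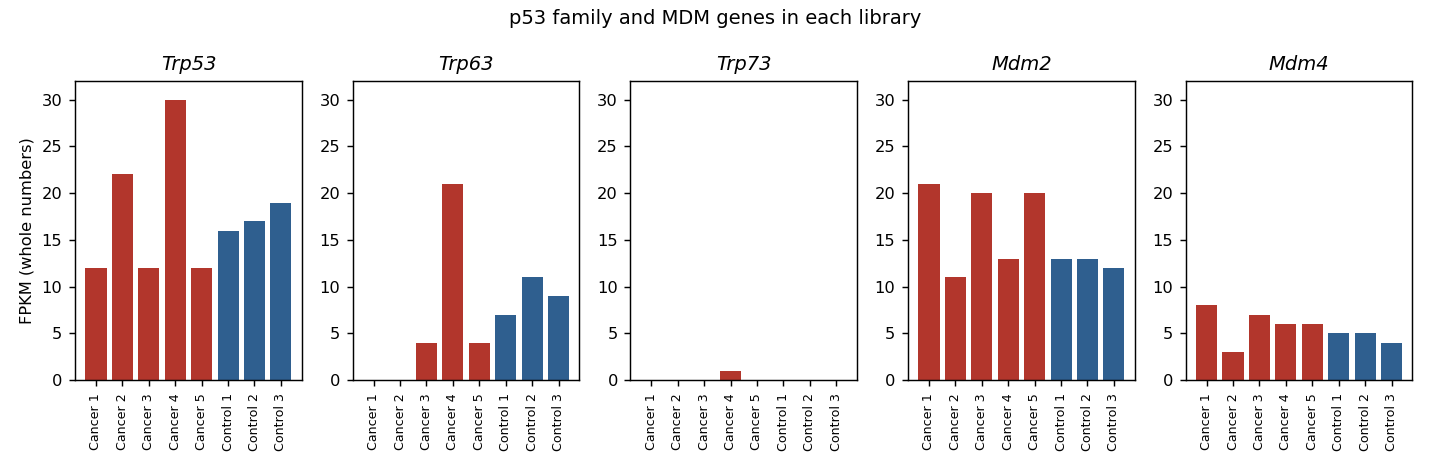
FPKM (vertical axis, whole numbers as deposited) of the 5 members in each library, with the 5 cancers in red and the 3 controls in blue, 1 bar a library. Trp53 is highest in cancers 2 and 4 (22 and 30) where Mdm2 is lowest among the cancers (11 and 13), Trp63 is listed at 0 in cancers 1 and 2 and reaches 21 in cancer 4, and Trp73 is above 0 only in cancer 4.

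Trp53, 1 of the 2 genes targeted for deletion, stood at 12, 22, 12, 30 and 12 FPKM in cancers 1 to 5 and at 16, 17 and 19 FPKM in controls 1 to 3. Cancers 1, 3 and 5 lay below every control, and cancers 2 and 4 lay above every control. The mean was 17.6 ± 8.17 FPKM (SD, n = 5) in the cancers and 17.3 ± 1.53 FPKM (SD, n = 3) in the controls. The highest cancer had 2.5 times the FPKM of the lowest, against 1.19 times in the controls. Its log2FC was -0.08 ± 0.33 SE, with a limma-adjusted p of 0.87 and an exact permutation p of 0.79. RNA assigned to Trp53 was therefore present in every library labelled Trp53-/-. The table does not separate the exons between the loxP sites from the rest of the transcript, and the sources used here do not name those exons. In bulk tissue, fewer cells of a type and less RNA per cell cannot be told apart. Markers of non-epithelial cells were present in the cancers, with summed FPKM of 27 to 1284 for 8 smooth muscle, 81 to 374 for 8 fibroblast and 14 to 149 for 8 immune markers, against 260 to 421, 79 to 141 and 10 to 11 in the controls. Their part in the Trp53 level was not tested. Rb1, the other deleted gene, stood at 4, 4, 5, 6 and 4 FPKM in cancers 1 to 5 and at 9, 9 and 10 FPKM in controls 1 to 3. Unlike Trp53, it was lower in every cancer (log2FC of -0.90 ± 0.16 SE with a limma-adjusted p of 0.0059). Rb1 was not past the threshold after scaling by reference genes (-0.55, adjusted p = 0.073) or with TPM (-0.051, adjusted p = 0.84). Set against the median log2FC of all genes, it stood at -0.86 with FPKM, -0.84 with reference genes and -0.81 with TPM.

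Mdm2, which encodes the main ubiquitin ligase of p53, stood at 21, 11, 20, 13 and 20 FPKM in cancers 1 to 5 and at 13, 13 and 12 FPKM in controls 1 to 3. Cancers 1, 3 and 5 lay well above the controls, whereas cancer 4 equalled the highest control and cancer 2 lay below the lowest. The mean was 17.0 ± 4.64 FPKM (SD, n = 5) in the cancers and 12.7 ± 0.577 FPKM (SD, n = 3) in the controls. Its log2FC was 0.36 ± 0.23 SE, with a limma-adjusted p of 0.25 and an exact permutation p of 0.29. Ranked within its own library, which no scaling alters, Mdm2 exceeded between 76.1% and 87.1% of all genes in the cancers and between 75.4% and 76.9% in the controls. By this rank 4 of 5 cancers lay above every control.

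Mdm4, which encodes the partner of MDM2, stood at 8, 3, 7, 6 and 6 FPKM in cancers 1 to 5 and at 5, 5 and 4 FPKM in controls 1 to 3. All cancers but cancer 2 lay above every control, and cancer 2 lay below every control. By rank within its own library, 3 of 5 cancers lay above every control, with cancer 5 level with control 1 (63.0% of all genes lower in both). The mean was 6.0 ± 1.87 FPKM (SD, n = 5) in the cancers and 4.67 ± 0.577 FPKM (SD, n = 3) in the controls. Its log2FC was 0.26 ± 0.26 SE, with a limma-adjusted p of 0.46 and an exact permutation p of 0.41. With values this low, a step of 1 FPKM from the rounding is a large part of the difference. The log2FC of Mdm4 was 0.45 without cancer 2 (limma-adjusted p of 0.053), 0.16 without cancer 1 (0.67) and 0.17 without control 3 (0.70).

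How libraries were scaled mattered for these genes. With TPM, which sets every library to the same sum, the median log2FC of all genes moved from -0.04 to 0.76, and 53.4% of all genes were called. With TPM the log2 fold changes were 0.84 for Trp53 (adjusted p = 0.021 from limma), 1.27 for Mdm2 (adjusted p = 0.014) and 1.07 for Mdm4 (adjusted p = 0.035), so that 3 of the 4 members were called. Relative to the median of all genes, Trp53 stood at -0.04 with FPKM and at 0.08 with TPM. Mdm2 stood 0.39 above the median with FPKM and 0.51 above it with TPM, and Mdm4 0.30 and 0.32 above it. Scaling by 12 reference genes moved the median to 0.29 and called 0 of the 4 members (Trp53 0.29, Mdm2 0.73, Mdm4 0.59). Trp53 thus had no direction that held across scalings, whereas Mdm2 and Mdm4 were above 0 and above the median of all genes in all 4 scalings plotted.

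**Figure D2:**
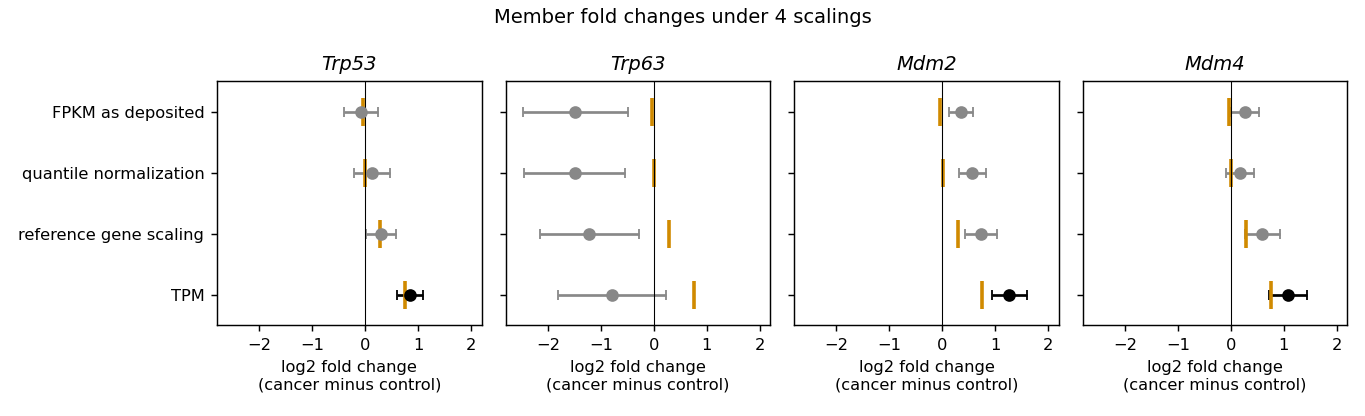
log2 fold change of 4 members (cancer minus control, horizontal axis) with the standard error from limma as bars, under the 4 scalings named on the vertical axis. Black points have an adjusted p under 0.05, grey points do not, and the orange tick is the median log2FC of all genes tested, which reaches 0.76 with TPM, close to Trp53 at 0.84.

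Ratios between members were taken within each library, as log2 ratios of FPKM + 1, on which the scaling of a library has little effect. The question was whether the regulators were out of proportion to Trp53 in the cancers. The log2 ratio of Mdm2 to Trp53 was 0.76, -0.94, 0.69, -1.15 and 0.69 in cancers 1 to 5 and -0.28, -0.36 and -0.62 in the controls. Cancers 1, 3 and 5 thus had more Mdm2 than Trp53 and cancers 2 and 4 had less, with every control between these 2 sets. The mean difference between the groups was 0.43 (two-sided exact permutation p = 0.46, adjusted p = 0.83 over 4 ratios). It was 0.25, 0.26 and 0.26 without cancers 1, 3 and 5, and 0.67 and 0.72 without cancers 2 and 4.

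The log2 ratio of Mdm4 to Trp53 has Trp53 in common with the ratio above, so it is not independent of it. Mdm4 alone did not separate the same cancers, at 6 FPKM in both cancer 4 and cancer 5. The ratio separated them, at -0.53, -2.52, -0.70, -2.15 and -0.89 in cancers 1 to 5, against -1.50, -1.59 and -2.0 in controls 1 to 3. Its mean difference was 0.34 (exact permutation p = 0.55, adjusted p = 0.83), and 0.13, 0.17 and 0.22 without cancers 1, 3 and 5, 0.63 and 0.53 without cancers 2 and 4 and 0.18 without control 3. The log2 ratio of Mdm2 to Mdm4 stayed between 1.0 and 1.59 in the cancers and between 1.22 and 1.38 in the controls (difference 0.10, exact permutation p = 0.63, adjusted p = 0.83). The 2 regulators therefore kept a narrower ratio to each other (SD 0.24 over the cancers) than either kept to Trp53 (SD 0.97 for Mdm2 and 0.91 for Mdm4).

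**Figure D3:**
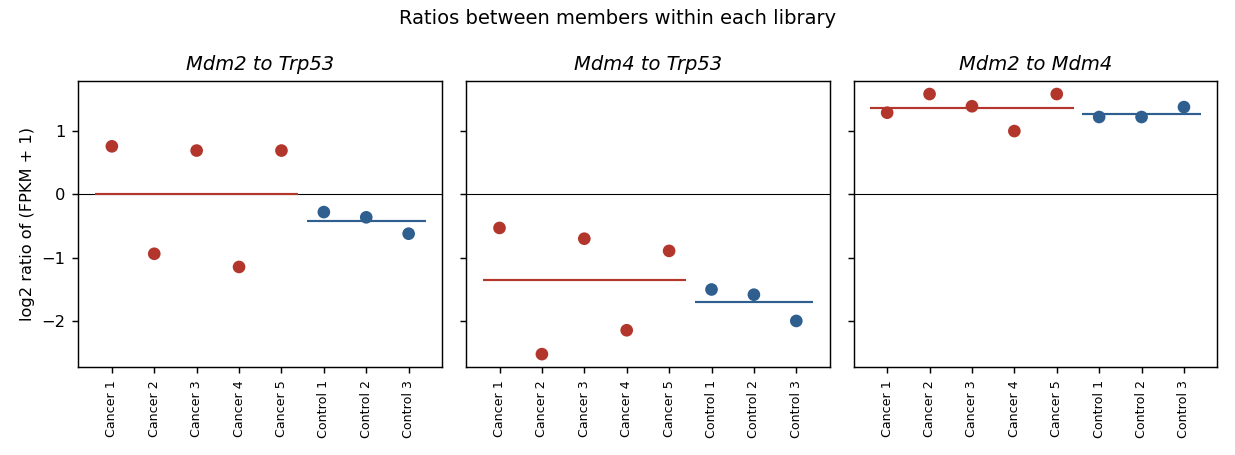
log2 ratios of FPKM + 1 (vertical axis) between pairs of members within each library, with cancers in red, controls in blue and a horizontal line at each group's mean. Mdm2 to Trp53 is between 0.69 and 0.76 in cancers 1, 3 and 5 and between -1.15 and -0.94 in cancers 2 and 4, whereas Mdm2 to Mdm4 stays between 1.0 and 1.59 in all cancers.

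Some other values divided the cancers in the same way, and others did not. Cancers 2 and 4 had the largest FPKM sums among the cancers (573858 and 559720, against 403569 to 445770) and the largest summed FPKM of the 10 gastric gland markers (78716 and 55566, against 694 to 16662). Their summed FPKM of the immune markers was the lowest among the cancers (18 and 14, against 23 to 149). So was that of the 10 neuroendocrine markers (8251 and 15646, against 15922 to 18554). The sums of the 8 fibroblast markers did not divide the cancers so, at 262, 368, 374, 263 and 81 in cancers 1 to 5. Nor did those of the 8 smooth muscle markers, at 27, 1284, 401, 277 and 48. Over 9138 genes with a mean FPKM of at least 5, the genes whose centred log2 profile over the 8 libraries was nearest to that of Trp53 were Rpl12, Rpl28 and Rpl36, which encode ribosomal proteins. Their root mean square differences from Trp53 were 0.091, 0.094 and 0.10. Rpl12 stood at 735, 1359, 711, 1570 and 771 FPKM in cancers 1 to 5 and at 1073, 999 and 1082 FPKM in controls 1 to 3, again highest in cancers 2 and 4. The nearest to Mdm2 were 2610002M06Rik, 2900097C17Rik and Rab3gap2 (0.047, 0.065 and 0.086), and the nearest to Mdm4 were Zfp266, Sf3b1 and Rbm26 (0.060, 0.084 and 0.10). Sf3b1, which encodes a splicing factor, stood at 47, 21, 47, 43 and 37 FPKM in cancers 1 to 5 and at 31, 34 and 26 FPKM in controls 1 to 3. The part of normal gland RNA or of the scaling in the levels of Trp53 and Mdm2 was not tested.

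Trp63 stood at 0, 0, 4, 21 and 4 FPKM in cancers 1 to 5 and at 7, 11 and 9 FPKM in controls 1 to 3. Cancers 1, 2, 3 and 5 lay below every control, and cancer 4 lay above the highest control. The mean was 5.8 ± 8.73 FPKM (SD, n = 5) in the cancers and 9.0 ± 2.0 FPKM (SD, n = 3) in the controls. Its log2FC was -1.48 ± 0.996 SE, with a limma-adjusted p of 0.27 and an exact permutation p of 0.23. Without cancer 4 it was -2.14 (adjusted p = 0.058 from limma), so that this library holds the fold change closer to 0. The value was -2.8 with a pseudocount of 0.1 (adjusted p = 0.27 from limma) and -0.79 with TPM (adjusted p = 0.52), below 0 under each and past the threshold under neither.

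Several markers of squamous epithelium were high and low in the same cancers as Trp63, and others were not. Krt5 and Krt14, the keratin pair of basal squamous cells, had FPKM of 0 and 0 in cancer 1, where Trp63 was listed at 0, and of 1 and 3 in cancer 2, where it was also listed at 0. In cancer 4 Krt5 reached 574 and Krt14 403, above the controls (128 to 203 and 100 to 143). In cancers 3 and 5 Krt5 had 85 and 57. Krt15, Col17a1, Dsg3 and Dsc3 were also highest among the cancers in cancer 4. Against this order, Dst, a plakin gene, stood at 30, 8, 23, 11 and 30 FPKM in cancers 1 to 5, and Itga6, an integrin gene, at 18, 19, 12, 12 and 26 FPKM. In cancer 2, where Trp63 was listed at 0, Itgb4 and Lamb3 had their highest values among the cancers (24 and 23 FPKM). The mean log2(FPKM + 1) of 10 basal squamous markers was 1.12, 2.07, 3.31, 4.95 and 3.75 in cancers 1 to 5 and 4.37, 4.62 and 4.56 in the controls. Of these 10 markers, 0 were higher and 1 lower in the cancers in limma, where 16.2% of all genes were higher and 18.3% lower. The lower one was Itga6, and with TPM 1 marker, Dst, was higher and 0 were lower, beside 49.5% and 3.9% of all genes. The 18 suprabasal markers, among them the cornified envelope gene Lor, had 0 higher and 6 lower, with a median log2 fold change of -3.24 beside -0.04 for all genes.

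The log2 ratio of Trp63 to the mean of the 10 basal markers was -1.12, -2.07, -0.98, -0.49 and -1.43 in cancers 1 to 5, against -1.37, -1.03 and -1.24 in controls 1 to 3. The groups had close to the same mean ratio, -1.22 ± 0.59 (SD, n = 5) and -1.21 ± 0.17 (SD, n = 3), with no difference detected (difference -0.0041, exact permutation p = 0.98, adjusted p = 0.98). In cancers 1 and 2 the ratio rests on Trp63 listed at 0, so that its value depends on the pseudocount: with 0.1 in place of 1 the difference was -0.59 (exact permutation p = 0.63). Some basal markers, such as the integrin genes Itga6 and Itgb4, are also used by glandular epithelium. Genes nearest to Trp63 in profile were Prss27, Dsg3 and Irx3 (root mean square differences of 0.33, 0.33 and 0.49). Dsg3, which encodes a desmosomal cadherin of squamous epithelium and is 1 of the 10 markers, stood at 0, 0, 4, 18 and 7 FPKM in cancers 1 to 5 and at 5, 9 and 12 FPKM in controls 1 to 3. The part of squamous epithelium in the Trp63 levels was not tested.

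**Figure D4:**
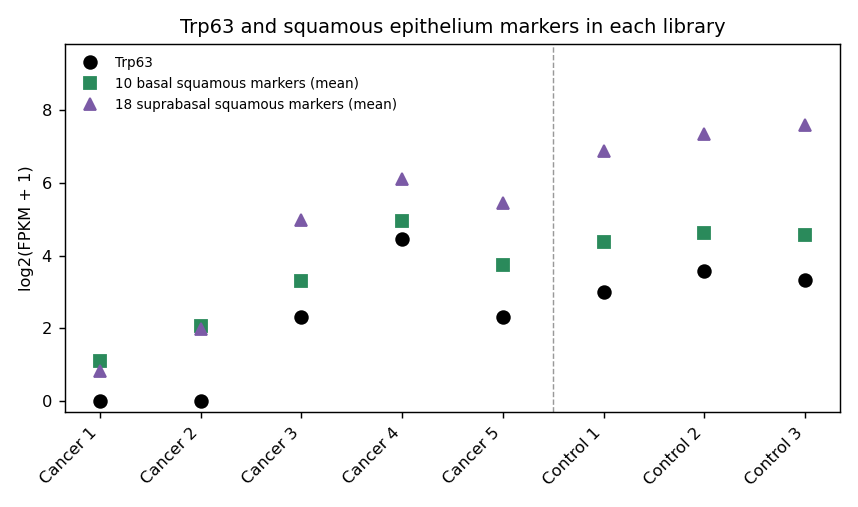
log2(FPKM + 1) (vertical axis) of Trp63 and the mean of 10 basal and 18 suprabasal squamous markers in each library, cancers left of the dashed line and controls right of it. Trp63 and both marker sets are lowest in cancers 1 and 2 and, among the cancers, highest in cancer 4, where the basal mean (4.95) lies above the controls and the suprabasal mean (6.09) below them.

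Trp73 was listed at 0 in cancers 1, 2, 3 and 5 and in all 3 controls, and at 1 FPKM in cancer 4. It did not pass the filter on low values and no fold change is given. Among 10 genes of multiciliated cells, in which p73 is known to act, 7 were listed at 0 in every library, Foxj1 and Mcidas among them. Of the 3 tested, 1 was higher in the cancers in limma, beside 16.2% of all genes, and 3 with TPM, beside 49.5%. These 3, Rfx2, Rfx3 and Dnai1, had 3 FPKM or less in every library. A step of 1 FPKM from the rounding is a large part of such differences. Trp73 is also known as a target of E2F1, and E2f1 with many genes activated by E2F was higher in the cancers. E2f1 stood at 15, 9, 13, 6 and 13 FPKM in cancers 1 to 5 and at 1, 2 and 2 FPKM in controls 1 to 3 (log2FC of 2.16 ± 0.30 SE with a limma-adjusted p of 0.0028). Of 21 E2F-activated genes, 12 rose and 0 fell in limma, beside 16.2% and 18.3% of all genes, and their median log2 fold change was 0.98. With TPM 18 were higher and 0 were lower, beside 49.5% and 3.9% of all genes, with a median of 1.86 beside 0.76. Trp73 itself was listed at 0 or 1 in all libraries, at the resolution of whole FPKM. Without read numbers, a listed 0 does not show that its RNA was absent.

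By level, the members formed a clear order in the controls and not in the cancers. In the controls Trp53 (16 to 19 FPKM) lay above Mdm2 (12 to 13), Mdm2 above Trp63 (7 to 11), Trp63 above Mdm4 (4 to 5) and Mdm4 above Trp73 (0), with no overlap between neighbours. In the cancers the ranges of Trp53 (12 to 30) and Mdm2 (11 to 21) overlapped, as did those of Mdm4 (3 to 8) and Trp63 (0 to 21).

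The rest of the pathway was read from lists of genes that act on p53 or MDM2 or respond to p53. Limma called 27 of the 81 such genes tested (33.3%, close to the 34.5% of all genes), 10 as higher and 17 as lower in the cancers. The count was 16 without cancer 3 and 10, 13 and 17 without controls 1, 2 and 3, where 24.4%, 17.5%, 18.6% and 19.8% of all genes were called. TPM gave 42, of which 41 were higher and 1 was lower, reference gene scaling gave 22 (15 higher and 7 lower), and quantile normalization gave 20 (10 higher and 10 lower). The shares of all genes called at these settings were 53.4%, 29.3% and 27.9%, and 92.7% of the TPM calls over all genes were higher.

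The lowest adjusted p of the 81 genes was that of Cdkn2a, which encodes both ARF, the inhibitor of MDM2, and the kinase inhibitor p16INK4a. It had FPKM of 65, 58, 85, 29 and 62 in cancers 1 to 5 and was listed at 0 in all 3 controls (adjusted p = 0.00017 from limma, exact permutation p = 0.018, the smallest that 5 against 3 samples allow). One value per gene does not separate ARF from p16INK4a. Of the other 9 genes whose products bind MDM2, among them Rpl5, Rpl11 and the nucleolar genes Npm1 and Ncl, 0 were called in limma, beside 34.5% of all genes. With TPM, which called 53.4% of all genes, 8 of the 10 genes were higher, Cdkn2a, Rpl5, Rpl11, Npm1 and Ncl among them. Rpl11, a ribosomal protein gene, stood at 710, 1301, 825, 1421 and 735 FPKM in cancers 1 to 5 and at 1219, 1077 and 816 FPKM in controls 1 to 3, in which cancers 2 and 4 are again the highest.

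Among 11 kinases that phosphorylate p53, MDM2 or MDM4 or act upstream of them, 2 rose and 3 fell in limma, beside 16.2% and 18.3% of all genes, whereas with TPM 5 were higher and 1 was lower, beside 49.5% and 3.9%. Chek1, the checkpoint kinase activated by ATR, stood at 6, 3, 5, 2 and 3 FPKM in cancers 1 to 5 and at 1, 1 and 0 FPKM in controls 1 to 3 (log2FC of 1.53 with a limma-adjusted p of 0.015). Hipk2, a kinase that phosphorylates p53 during lethal DNA damage, fell to 2, 3, 1, 1 and 4 FPKM in the cancers, against 14, 20 and 20 in the controls (log2FC of -2.65 with a limma-adjusted p of 0.0022). Dyrk2, which phosphorylates the same site, fell with it (log2FC of -1.35 with a limma-adjusted p of 0.012, and -0.46, adjusted p = 0.31, with TPM). Atm and Atr, the sensor kinases of DNA damage, were not called, with ranges that overlapped between groups (Atm at 2 to 5 FPKM in cancers against 3 to 4 in controls, Atr at 1 to 3 against 2 to 3).

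Of 22 modifiers and cofactors of p53 or MDM2, 2 rose, 3 fell and 17 were not called, beside 16.2% of all genes higher and 18.3% lower. With TPM 13 were higher and 0 were lower, beside 49.5% and 3.9% of all genes. Smyd2, a methyltransferase that acts on p53, rose from 12, 16 and 16 FPKM to 33, 31, 29, 25 and 35 (log2FC of 1.01 with a limma-adjusted p of 0.0038). Kmt5a (Setd8 in the table), another methyltransferase of p53, fell from 133, 102 and 112 FPKM to 23, 60, 38, 57 and 38 (log2FC of -1.47 with a limma-adjusted p of 0.011). Usp2, a deubiquitinase of MDM2, fell from 6, 10 and 11 FPKM to 2, 3, 2, 4 and 4 (log2FC of -1.32 with a limma-adjusted p of 0.010). Neither Kmt5a nor Usp2 was past the threshold with TPM (adjusted p of 0.076 and 0.14). Usp7, the main deubiquitinase of p53 and MDM2, had FPKM of 18 to 28 in the cancers and of 27 to 30 in the controls and was not called (adjusted p = 0.19 from limma).

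Of 9 other ubiquitin ligases of the p53 family, 0 rose and 4 fell in limma, beside 16.2% and 18.3% of all genes, with a median log2 fold change of -0.30 beside -0.04. Itch, which targets p63 and p73, stood at 12, 8, 12, 11 and 11 FPKM in cancers 1 to 5 and at 18, 21 and 19 FPKM in controls 1 to 3 (log2FC of -0.79 with a limma-adjusted p of 0.0082, but 0.12 with an adjusted p of 0.70 with TPM). Wwp1, a relative of Itch that targets p63, stood at 3, 8, 5, 12 and 8 FPKM in cancers 1 to 5 and at 19, 26 and 18 FPKM in controls 1 to 3 (log2FC of -1.52 with a limma-adjusted p of 0.018, and -0.63 with an adjusted p of 0.12 with TPM). Rchy1, a ligase of p53, had a log2FC of -0.45 with a limma-adjusted p of 0.021. With TPM 0 of the 9 were lower and 3 were higher, beside 3.9% and 49.5% of all genes, and Rchy1 turned to 0.49 (adjusted p = 0.037 from limma). The median of the 9 was below that of all genes under both scalings (0.62 beside 0.76 with TPM).

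Of 29 p53-activated genes tested, Mdm2 left aside, 5 were higher and 7 lower in limma, beside 16.2% and 18.3% of all genes, and their median log2FC was -0.15. With TPM 12 were higher and 0 were lower, beside 49.5% and 3.9% of all genes. Trp53inp1, which encodes a partner of the p53 kinases, rose from 4, 5 and 3 FPKM to 33, 6, 23, 13 and 58 (log2FC of 2.13 with a limma-adjusted p of 0.036). Like Mdm2, it was higher in cancers 1, 3 and 5 than in cancers 2 and 4. Perp, a desmosome gene activated by p53 and p63, fell from 358, 393 and 373 FPKM to 25, 102, 77, 212 and 110 (log2FC of -2.11 with a limma-adjusted p of 0.029). Among the cancers it was highest in cancer 4, as Trp63 was. In cancer 2, where Trp63 was listed at 0, it was higher than in cancer 3, where Trp63 was listed at 4. Cdkn1a, the cell cycle inhibitor p21, stood at 18, 81, 18, 54 and 90 FPKM in cancers 1 to 5. The controls had 182, 128 and 190 FPKM (log2FC of -1.94 with a limma-adjusted p of 0.041). Unlike Mdm2, it was lowest in cancers 1 and 3. Neither Perp nor Cdkn1a was past the threshold with TPM (adjusted p of 0.074 and 0.13).

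**Figure D5:**
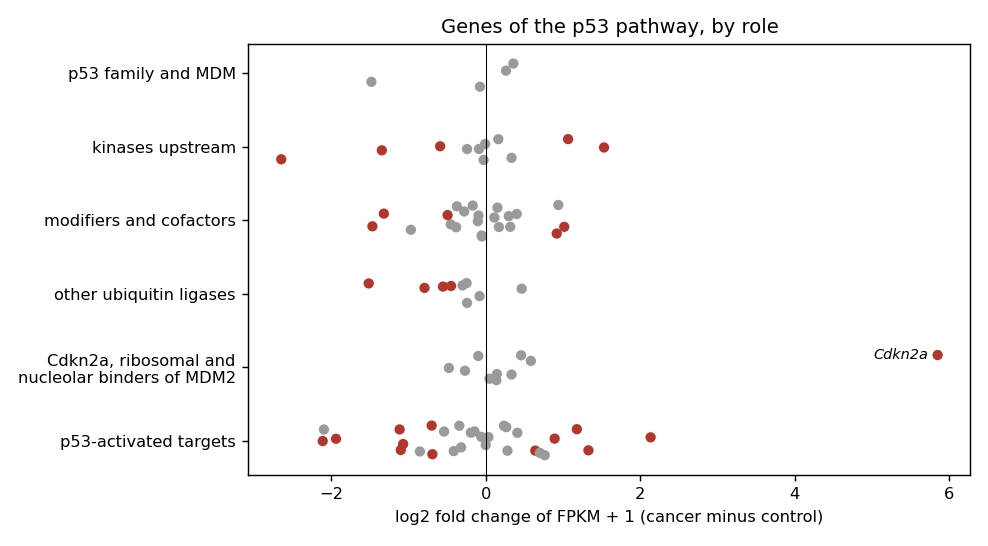
log2 fold change of FPKM + 1 (cancer minus control, horizontal axis) of each gene tested, 1 point a gene, by role in the p53 pathway; red points have an adjusted p under 0.05 in limma and grey points do not. The 4 members at the top are grey, and Cdkn2a, listed at 0 in every control and at 29 to 85 FPKM in the cancers, lies farthest to the right.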

How the data were processed

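RNA of 5 SCJ cancers and 3 control SCJ tissues was sequenced by the authors from directional polyA+ libraries. Per the labels and the study's methods, reads were processed with cutadapt 1.8, TopHat2 2.0.13, cuffquant and Cuffnorm 2.2.1 on mm10 genes. The deposited values are FPKM rounded to whole numbers by the authors (100% of values), so they were treated as a score, with no count model. The Cuffnorm normalization option and the strand setting are not given in the sources used here.

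The 14357 genes that reached an FPKM of 1 in 3 or more samples were fitted as log2(FPKM + 1). The tool was limma 3.58.1 (moderated variances with a mean trend) under R 4.3.3, and p-values were adjusted by Benjamini-Hochberg over these genes at 0.05. For single values, group means were set against each other with an exact permutation test (two-sided). The table held 203 of the 204 entries of the gene lists. The members and lists were chosen with earlier results of these data known. Genes named are the members, Rb1, up to 3 per list with the largest change among those called without overlap between groups, and 3 genes nearest in profile to each member, except Trp73, whose profile was 0 in 7 of 8 libraries. Others (Pgc, Rpl26, Rpl11, Krt5, Krt14, Krt15, Col17a1, Dsc3, Dst, Itgb4, Lamb3, Atm, Atr, Usp7, Foxj1, Mcidas, Rfx2, Rfx3, Dnai1 and genes named without a value) were chosen after their values were seen. Alternatives were another pseudocount (0.1), no filter, a mean FPKM of at least 5, TPM, quantile normalization, reference gene scaling, variances without the trend, array weights, blocking on the replicate number and leaving out each sample. Sequences came from RefSeq on GRCm38.p6.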

Additional observations from a re-analysis of the deposited data

Results flagged for a closer look

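Trp73 stood out among the 9 results examined for a single distant cancer (5 members and 4 ratios, on the log2 scale), of which chance gives about 0.45. Cancer 4 was listed at 1 FPKM and the other 4 cancers at 0, so that the gap of cancer 4 to the others was the whole range (1.0). At whole FPKM this is the smallest step that can be recorded. With the other 4 cancers tied at 0, any value above 0 would give this gap. The chance figure therefore does not apply to Trp73.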

How the results depend on the processing

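With TPM, quantile normalization and reference gene scaling Trp53 had log2 fold changes of 0.84, 0.12 and 0.29, reversed from -0.08, and from -0.29 to 0.027 when each sample was left out. Mdm2 passed the threshold with TPM (1.27) and array weights (0.46), and Mdm4 with TPM (1.07). Their ranges with each sample left out were 0.27 to 0.49 and 0.16 to 0.45, and -2.14 to -1.03 for Trp63. Without the filter Trp73 had 0.20 (adjusted p = 0.56 from limma). Members called numbered 0, but 3 with TPM and 1 with array weights, where 53.4% and 56.8% of all genes were called. Genes called numbered 4948 (47.0% higher), 7672 with TPM (92.7% higher), 8148 with array weights and 2490 to 5252 with each sample left out. Reference gene scaling gave 69.3% higher. Pathway genes called numbered 27, 42 with TPM and 10 to 29 with each sample left out. With each sample left out, the difference between groups in the ratio of Mdm2 to Trp53 ran from 0.25 to 0.72, of Mdm4 to Trp53 from 0.13 to 0.63 and of Mdm2 to Mdm4 from 0.042 to 0.19. The difference in the ratio of Trp63 to basal squamous markers ran from -0.19 to 0.21 with each sample left out and was -0.59 with a pseudocount of 0.1. The labels do not say whether the replicate numbers pair the samples. Deviations of same-numbered samples correlated at -0.02, -0.19 and -0.10, which cannot settle this with so few samples. The replicate block called 1534 genes and 8 pathway genes and no member, with Trp63 at -2.53 (adjusted p = 0.094 from limma). Of the 155 values under alternatives, 129 stayed the same. For fold changes and ratios this meant the same sign and the same side of the threshold. For counts it meant within 1.5 times, or equal where a count was 0. The cause of the changes was not tested. Rounding to whole FPKM limits Trp73, Mdm4 and other low genes most.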
